A study of Mus musculus with 12 samples.

Results

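The genes described here encode 9 core factors of nonsense-mediated decay (NMD), taken by symbol from a table of 24254 genes: Upf1, Upf2, Upf3a, Upf3b, Smg1, Smg5, Smg6, Smg8 and Smg9. Their RNA was followed in mouse oocytes that had finished growth but not resumed meiosis (germinal vesicle stage), with 4 RNA-seq libraries in each of 3 groups. All 3 groups carry a gene trap in Marf1, which encodes a ribonuclease that oocytes need for meiosis, and no group without the trap is among them. GT oocytes are the gene-trap oocytes themselves. GTWT oocytes carry the same trap and received, by microinjection, an mRNA encoding wild type MARF1. GTD272 oocytes received instead an mRNA encoding D272-mutated MARF1. Per the labels, the mice were C57BL/6, 3 weeks old and primed for 46 h with 5 IU of the gonadotropin PMSG, and each library came from 80 pooled oocytes. After injection, oocytes stayed 48 h in medium with milrinone, which holds them at this stage. The labels do not say whether GT oocytes were cultured, and no library is labelled as injected with a control RNA, so injection, culture and the protein supplied cannot be told apart in a comparison with GT. Nor do they say that the libraries of a group came from separate animals, so p-values measure only the spread between these libraries, which may be technical.

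NMD is a quality control pathway that degrades mRNAs on which a ribosome stops too early, and it also lowers many normal mRNAs with upstream reading frames or long 3′ untranslated regions. UPF1, an RNA helicase, is its central protein. UPF2 and the UPF3 paralogs link UPF1 to exon junction complexes left on spliced mRNA, and the kinase SMG1, held in check by SMG8 and SMG9, phosphorylates UPF1. Phosphorylated UPF1 is bound by SMG5, which helps recruit decay enzymes, and by SMG6, which cuts the RNA. In several mammalian cell types the mRNAs of many of these factors are themselves NMD substrates. Fully grown oocytes make little new RNA, so an oocyte's transcripts are mostly stored ones.

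The group labels were checked with Marf1, whose FPKM (a level in fragments per kilobase, scaled to library size) had a mean of 1.60 ± 0.242 in GT libraries (SD, n = 4), of 9.12 ± 0.806 in GTD272 libraries and of 17.5 ± 5.08 in GTWT libraries. The injected groups therefore differed in Marf1 RNA as well as in the protein encoded (limma adjusted p = 0.0188, and 0.0505 to 0.0549 without GTD272 replicate 2 or 4 or GTWT replicate 4). All 12 oocyte markers, such as Zp3 and Gdf9, reached an FPKM of 1 in every library. Of 9 granulosa and cumulus markers 3 did so, Nr5a2, Kitl and Cyp19a1, and the list's summed FPKM was 140.5 to 148.9 in GT, against 124.7 to 134.4 in GTD272 libraries and 118.3 to 127.3 in GTWT libraries. Most of that sum was Nr5a2, at 124.6 ± 4.04 in GT and 103.2 ± 3.09 in GTWT, and the part of this list in the differences between groups was not tested. Of the other markers of this list, Fshr, Foxl2, Amh and Hsd17b1 had group means up to 0.355, with Hsd17b1 at 0 in GT. Inha and Has2 had group means up to 0.499 and 0.638. The summed FPKM of 3 theca markers was at most 0.849, and both blood markers were at 0 in every library.

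All 9 NMD factor genes were detected in every library and all passed the filter on low values, which asked for an FPKM of 1 or more in 4 or more libraries. The most abundant transcript was that of Smg8, with a mean FPKM of 92.3 over the 12 libraries and a range of 81.5 to 110.0. This put it at the 92.7th percentile of the 11687 genes tested. Smg5 followed at 22.8 (20.3 to 24.5), so every Smg8 value lay above every Smg5 value. The next levels were 18.9 for Upf3b, 18.1 for Upf1, 11.5 for Smg6 and 9.26 for Upf2. The 3 lowest were Upf3a at 6.08, Smg1 at 5.70 and Smg9 at 5.45, at percentiles 34.9, 33.5 and 32.6 of tested genes.

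Only Smg8 was separated from its neighbour in this order by its range over the 12 libraries. Within each library Smg5 exceeded Upf3b, Upf1 exceeded Smg6, Smg6 exceeded Upf2 and Upf2 exceeded Upf3a in 12 of 12 libraries. Upf3b exceeded Upf1 in 6 of 12 libraries and Upf3a exceeded Smg1 in 5, so those pairs had no fixed order. Smg1 exceeded Smg9 in 8 of 12 libraries. Of the genes for the SMG1 kinase complex, the regulator gene Smg8 was thus the highest of all members, while the kinase gene Smg1 and the other regulator gene, Smg9, were among the 3 lowest with Upf3a. Smg8 also had the fewest exons of the 9, with 4 exons against 9 to 63 in the others, and the shortest 3′ untranslated region, of 221 bases against 400 to 4233, in the GENCODE M21 annotation.

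**Figure D1:**
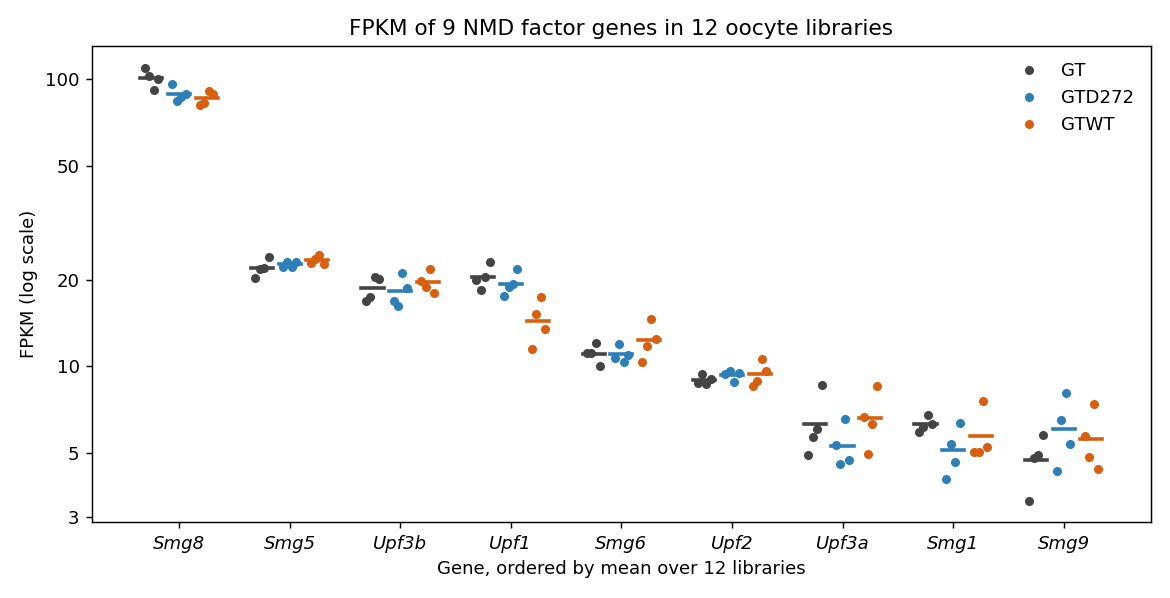
FPKM (log scale) of the 9 NMD factor genes in each of 12 libraries, with points for libraries and short lines for group means, coloured by group. Smg8 lies above all other genes in every library, and the GTWT points of Upf1 lie below all its GT and GTD272 points.

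Upf1, the helicase at the centre of the pathway (chromosome 8, 70331525 to 70353278, minus strand, GRCm38), was the member with the largest difference. Its FPKM in the 4 GT libraries was 20.01, 18.47, 20.46 and 23.16, in GTD272 17.6, 18.9, 19.4 and 21.8, and in GTWT 11.5, 15.2, 17.4 and 13.5. Every GTWT library was below every library of the other groups, while GT and GTD272 overlapped. The group means were 20.5 ± 1.95 (SD, n = 4) in GT, 19.4 ± 1.75 in GTD272 and 14.4 ± 2.53 in GTWT.

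Against GT, Upf1 fell in GTWT by 0.49 on the log2(FPKM + 1) scale (SE 0.11, 95% interval -0.74 to -0.24, limma adjusted p = 0.0108), and its mean FPKM fell by 29.8%. That call held whichever single library was left out (adjusted p = 0.00382 to 0.0347). In GTD272 against GT the difference was -0.08 (95% interval -0.32 to 0.17, limma adjusted p = 0.780) and Upf1 did not pass the test. The test of the difference between the injected groups gave -0.42 for GTWT minus GTD272 (SE 0.11, 95% interval -0.66 to -0.17), with a limma adjusted p of 0.0733, which missed the threshold of 0.05. Without GTWT replicate 3, the highest of its group, this difference was -0.51 and passed (limma adjusted p = 0.0329). In the other 11 fits with 1 library left out it did not pass (limma adjusted p up to 0.163), nor with no filter on low values (0.117). The authors' deposited table, made with Cuffdiff, calls Upf1 lower in GTWT in both comparisons, with q-values of 0.000573 against GT and 0.00189 against GTD272.

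Of the spliced bases of Upf1, 68 (1.47%) overlap Cers1 and Gdf1 on the opposite strand, and whether reads were counted by strand is not stated. Both neighbours were near 0, with Gdf1 at 0.642 ± 0.599 FPKM in GT and 0.769 ± 0.200 in GTWT (SD, n = 4), and Cers1 listed at 0 in all GT and GTD272 libraries and at most 0.225 in GTWT. By root mean square difference between standardised profiles over the 12 libraries, the 3 tested genes most like Upf1 were Gm11837 (0.38), A730098P11Rik (0.40) and Tmem87a (0.41). Gm11837 was at 6.7 ± 1.23 FPKM in GT, 7.15 ± 0.498 in GTD272 and 4.37 ± 0.873 in GTWT (SD, n = 4). In the same order A730098P11Rik was at 37.2 ± 1.97, 33.1 ± 2.12 and 28.5 ± 2.56, and Tmem87a at 4.61 ± 1.01, 4.05 ± 0.796 and 1.58 ± 0.584.

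Upf2, the adaptor that binds UPF1 (chromosome 2, 5951469 to 6056703), held a narrow range in GT and GTD272. It was at 8.99 ± 0.322 FPKM in GT, 9.36 ± 0.343 in GTD272 and 9.42 ± 0.926 in GTWT (SD, n = 4). It passed no comparison, with differences of 0.06 (95% interval -0.13 to 0.24) for GTWT minus GT and 0.05 (-0.13 to 0.24) for GTD272 minus GT. The ratio of Upf1 to Upf2 FPKM was 1.96 to 2.56 in GT, 1.86 to 2.29 in GTD272 libraries and 1.35 to 1.72 in GTWT libraries, so the GTWT ratios lay below all others.

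Upf3a (chromosome 8, 13785615 to 13799193) and Upf3b (chromosome X, 37091678 to 37110322) encode paralogs that occupy the same place between UPF2 and the exon junction complex. UPF3B is the more active in NMD, and mouse UPF3A has been described both as a weak activator and as an antagonist. Since FPKM can mix similar genes, their coding sequences were compared. The most similar 150-base stretch, the length of a read in this study, follows with the bases that differ in capitals (GENCODE M21 transcripts, coding bases 306 to 455 of Upf3a and 261 to 410 of Upf3b):
Upf3a: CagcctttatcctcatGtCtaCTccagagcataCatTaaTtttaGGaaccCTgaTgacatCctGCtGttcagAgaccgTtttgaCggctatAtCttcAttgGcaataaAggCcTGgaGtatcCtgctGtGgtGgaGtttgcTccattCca
Upf3b: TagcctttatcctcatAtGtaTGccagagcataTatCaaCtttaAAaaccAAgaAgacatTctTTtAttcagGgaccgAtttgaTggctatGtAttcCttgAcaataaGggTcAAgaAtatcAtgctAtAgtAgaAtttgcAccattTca
In this stretch 36 of 150 bases differ (76.0% identity), and the longest identical run in register anywhere between these coding sequences is 15 bases. No other annotated transcript matched a coding sequence of the 9 members at 90% identity over 100 bases, except Gm12333, which lies antisense within Smg6.

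Upf3b was the more abundant paralog in every library. Its share of the summed Upf3a and Upf3b FPKM was 75.0% ± 3.5 in GT (SD, n = 4, 70.0 to 77.5), 77.6% ± 1.9 in GTD272 libraries (76.0 to 80.0) and 74.9% ± 5.1 in GTWT libraries (67.7 to 79.2), and these ranges overlapped. Upf3b itself was at 18.7 ± 1.83, 18.3 ± 2.18 and 19.7 ± 1.65 FPKM in the same order. Upf3a varied more between libraries, with coefficients of variation of 25.5%, 17.2% and 22.5% against 9.78%, 11.9% and 8.41% for Upf3b. Neither paralog passed any comparison, and the largest difference was that of Upf3a in GTWT minus GTD272, at 0.27 (95% interval -0.11 to 0.64).

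Smg8, a regulator of the SMG1 kinase (chromosome 11, 87077732 to 87086774, minus strand), was the other member that passed a test. Its FPKM was 110.0, 103.2, 92.2 and 100.4 in the GT libraries, 96.5, 84.4, 86.8 and 88.7 in GTD272, and 81.5, 83.1, 91.5 and 88.8 in GTWT. Each GTWT library was below each GT library, although GTWT replicate 3 at 91.5 and GT replicate 3 at 92.2 nearly met. GTD272 overlapped both groups. Smg8 fell in GTWT against GT by 0.23 on the log2 scale (SE 0.06, limma adjusted p = 0.0242), and mean FPKM fell by 15.01%.

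The Smg8 call was not firm. Leaving out GT replicate 1 or 2, or GTWT replicate 1 or 2, ended it (limma adjusted p = 0.0606 to 0.0765), as did quantile normalization (0.0753) and a fit without the mean-variance trend (0.0569), and the authors' deposited table does not call it (q = 0.365). In GTD272 against GT the difference was -0.18 (SE 0.06, 95% interval -0.32 to -0.05, limma adjusted p = 0.133), and between the injected groups it was -0.05 (95% interval -0.18 to 0.09). The profiles most like that of Smg8 were those of Chuk (0.45), Adpgk (0.46) and Tcf7 (0.46), by the same measure as for Upf1. Chuk was at 13.1 ± 0.758 FPKM in GT, 11.1 ± 0.388 in GTD272 and 11.5 ± 0.413 in GTWT (SD, n = 4). In the same order Adpgk was at 81.9 ± 6.60, 72.9 ± 3.59 and 66.5 ± 4.39, and Tcf7 at 25.6 ± 3.34, 21.7 ± 3.27 and 19.1 ± 1.85. The table places Smg8 in a locus with many other genes, but its exons overlap none of them in GENCODE M21.

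Smg1, the kinase of UPF1 (chromosome 7, 118131308 to 118243670), was at 5.92, 6.13, 6.79 and 6.30 FPKM in the GT libraries, 4.04, 5.39, 4.64 and 6.34 in GTD272, and 5.02, 5.04, 7.61 and 5.25 in GTWT. GT values were close together, and 3 of 4 libraries in each injected group lay below all of them. GTD272 replicate 4 lay within the GT range and GTWT replicate 3 above it. Limma did not call it: GTD272 minus GT was -0.27 (SE 0.14, 95% interval -0.58 to 0.04, adjusted p = 0.335) and GTWT minus GT was -0.13 (95% interval -0.44 to 0.18). The authors' deposited table calls Smg1 in GTD272 against GT (q = 0.0252), where its mean FPKM was 5.10 against 6.28. Smg9, the partner of SMG8 (chromosome 7, 24399619 to 24422778), was the most variable of the 9 in GTD272 and GTWT, with coefficients of variation of 26.8% and 23.7%. It was at 4.71 ± 0.969 FPKM in GT, 6.07 ± 1.63 in GTD272 and 5.58 ± 1.32 in GTWT (SD, n = 4) and passed no comparison. The interval of its GTD272 minus GT difference, -0.11 to 0.70, reaches further from 0 than the fitted change of Upf1.

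**Figure D2:**
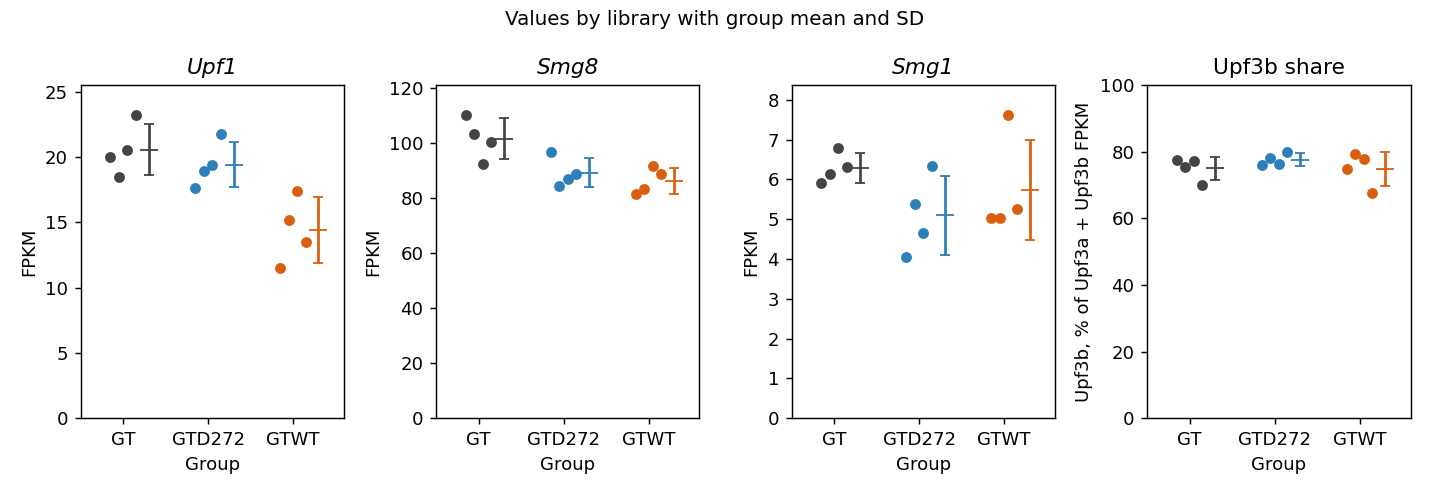
FPKM of Upf1, Smg8 and Smg1 and the Upf3b percentage of summed Upf3a and Upf3b FPKM, with points for libraries and bars for the group mean and SD (n = 4). Upf1 in GTWT (11.5 to 17.4) lies below GT and GTD272, Smg8 in GTWT below GT, and 1 GTWT library stands apart for Smg1 at 7.61.

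Smg5 and Smg6 encode the proteins that act on phosphorylated UPF1. Smg5 (chromosome 3, 88336260 to 88362338) was among the steadiest members, at 22.1 ± 1.55 FPKM in GT, 22.8 ± 0.508 in GTD272 and 23.4 ± 0.862 in GTWT (SD, n = 4). Its differences from GT were 0.08 in GTWT (95% interval -0.06 to 0.22) and 0.04 in GTD272 (-0.10 to 0.18), and neither passed. Smg6, the endonuclease (chromosome 11, 74925823 to 75164448), was at 11.08 ± 0.87, 11.01 ± 0.69 and 12.35 ± 1.75 FPKM in GT, GTD272 and GTWT, with 14.6 in GTWT replicate 3 as its highest value. It passed no comparison, and its difference from GT was 0.14 in GTWT (95% interval -0.08 to 0.36). Of the spliced bases of Smg6, 243 (4.16%) overlap Srr or Gm12333 on the opposite strand, and Srr was at 1.49 ± 0.598 FPKM in GT and 1.64 ± 0.520 in GTWT.

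In GTWT against GT, limma thus called 2 of 9 members, both lower and 0 higher, where 16.6% of all 11687 genes were called, 10.5% as lower and 6.14% as higher. The split over all genes depended on scaling, with 37.0% of calls higher (717 higher, 1223 lower) and 50.2% after quantile normalization (984 higher, 976 lower). GTWT and GT libraries did not overlap for 2 of 9 members, against 21.9% of all tested genes, and the authors' deposited table calls 1 of 9, against 18.6%. With so few members these shares are near those of all genes. The median of the 9 log2 differences was 0.06, and that of all tested genes was -0.01. In GTD272 against GT limma called 0 of 9 members (1 at an unadjusted p under 0.05, Smg8, and 1 in the authors' deposited table, Smg1), where 2.95% of genes were called by limma and 6.31% in the authors' deposited table. Between GTWT and GTD272 it called 0 of 9 (1 at an unadjusted p under 0.05, and 1 in the authors' deposited table, both Upf1), where 2.46% were called by limma and 5.22% in the authors' deposited table. Over all genes, limma p-values before adjustment lay below 0.05 for 19.0% in GTD272 against GT and for 18.4% in GTWT against GTD272. The injected groups did not overlap for 1 of 9 members, against 10.2% of genes. The comparisons with GT share their control libraries. The summed FPKM of the 9 genes was 193.8 to 207.4 in GT, 180.9 to 189.5 in GTD272 libraries and 172.1 to 201.9 in GTWT libraries, and Smg8 made up much of each sum. GTWT replicate 3 was the highest of its group for 8 of 9 members, all but Upf3a, and for 27.1% of all tested genes. Without it Upf1 and Smg8 differed from GT by -0.58 and -0.26 (limma adjusted p = 0.00382 and 0.0208). This library also had the largest summed FPKM over all rows (2523593, against 476475 to 1564996 in the others), of which a single row, Mir3064, held 59.7%. Over tested genes its sum was 958555, below those of GT replicate 4 (1195986) and GTWT replicate 1 (1354160). A single row, Mir684-1, also held 59.3% of the sum over all rows in GT replicate 4 and 50.2% in GTWT replicate 1.

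**Figure D3:**
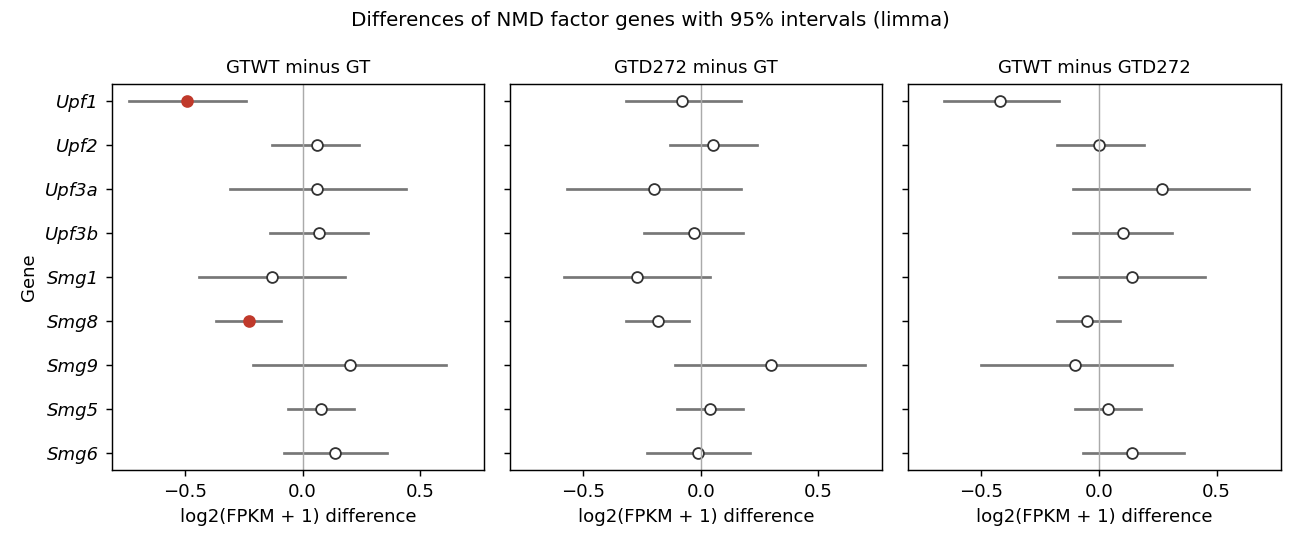
Differences on the log2(FPKM + 1) scale with 95% intervals from limma for the 9 genes in the 3 comparisons, ordered by role, with filled points for adjusted p under 0.05. Upf1 and Smg8 are filled in GTWT minus GT, at -0.49 and -0.23, and no point is filled in the other panels.

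The wider pathway was described with 48 further genes in 4 lists, of which 44 were tested. Among 10 other NMD factors limma called 0 of the 9 tested in every comparison. In GTWT against GT, GTD272 against GT and GTWT against GTD272, limma called 16.6%, 2.95% and 2.46% of all genes. In that order 2, 2 and 1 of the list had an unadjusted limma p under 0.05, against 30.9%, 19.0% and 18.4% of all genes. The authors' deposited table calls 0 of the list in each, against 18.6%, 6.31% and 5.22% of all genes. Dhx34, Dhx9 and Mov10 have the same deposited p-values and q-values as genes listed at 0 in every library, so the authors may not have tested them. The same holds for Dis3 and Hnrnpl in the lists below. Such genes count as not called in these shares. Levels in this list ran from 0.740 for Nbas, the gene not tested, to 66.3 for the cap-binding gene Ncbp2 (means over 12 libraries). The list's median difference in GTWT against GT was -0.22, from 9 genes of which none passed.

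Of 9 release factor and poly(A)-binding genes 1 rose in GTWT against GT and 8 did not pass (11.1% called by limma against 16.6% of all genes). It was Pabpc1l, which encodes a poly(A)-binding protein of oocytes. Its level rose by 0.36 on the log2 scale, from 68.2 ± 2.30 to 87.8 ± 6.68 FPKM (SD, n = 4, SE of the difference 0.06, limma adjusted p = 0.00130). In GTD272 Pabpc1l was at 79.8 ± 2.83, above every GT library, with a limma adjusted p of 0.0527. The authors' deposited table calls 3 of the 9 in GTWT against GT (18.6% of all genes), Pabpc1l and, with lower means in GTWT, Pabpc1 (q = 0.0256) and Pabpn1l (q = 0.0431). Gspt2, a paralog of the release factor gene Gspt1, had the highest level of this list (mean 135.6 over 12 libraries) and Eif4g1 the lowest (20.2). Of 13 exon junction complex genes 1 fell and 12 did not pass (7.69% called by limma against 16.6% of all genes). The authors' deposited table calls 0 of the 13 in GTWT against GT, against 18.6% of all genes. The one that fell, Magoh, a core subunit, went from 89.98 ± 11.15 to 73.66 ± 4.66 FPKM, with overlapping libraries (log2 difference -0.28, SE 0.08, limma adjusted p = 0.0371). It was lost without 6 of the 12 libraries (GT replicate 1, 2 or 4 or GTWT replicate 2, 3 or 4, limma adjusted p = 0.0519 to 0.102), after quantile normalization (0.0730), with no filter (0.0639), without the trend (0.0703) and with the compared groups alone (0.0572). Magoh was the most abundant gene of its list (mean 84.0 over 12 libraries) and its near copy Magohb the least (3.41), and values of such near copies are uncertain.

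Of 16 genes for decay enzymes and their partners 13 were tested. The deadenylase gene Cnot7 fell from 222.2 ± 14.9 FPKM in GT to 172.9 ± 5.70 in GTWT (log2 difference -0.36, limma adjusted p = 0.00427) and 166.0 ± 18.2 in GTD272 (-0.42, limma adjusted p = 0.00801), the highest level of the list. Its paralog Cnot8 fell from 70.7 ± 6.57 to 52.5 ± 4.15 in GTWT (-0.42, limma adjusted p = 0.00387). The other 11 tested genes did not pass in GTWT (15.4% called by limma against 16.6% of all genes). The authors' deposited table calls 5 of 13 in GTWT against GT, against 18.6% of all genes. They are Cnot7, Cnot8 and, with higher means in GTWT, Dcp2 (q = 0.00364), Edc4 (q = 0.0302) and Skiv2l (q = 0.0171). Xrn1, the exonuclease that degrades RNA from its 5′ end, was among the 3 genes too low to test, at a mean of 0.803 in GT, and Dcp1b was the lowest at 0.226 over 12 libraries. Over the 4 lists limma called 1 of 44 genes as higher and 3 as lower in GTWT against GT, or 9.09% against the 16.6% of all genes, with a median of -0.08. At an unadjusted limma p under 0.05 were 17 of the 44, where 30.9% of all genes were. By list these were 2 of 9 other NMD factors and 4 of 9 release factor and poly(A)-binding genes. They were 3 of 13 exon junction complex genes and 8 of 13 decay genes. The authors' deposited table calls 8 of 44 there, against 18.6% of all genes. In GTD272 against GT limma called 1 of 44, Cnot7, as lower, or 2.27% against 2.95% of all genes, and 9 were at an unadjusted p under 0.05 (19.0% of all genes). The authors' deposited table calls 4 of 44 there, Cnot7, Pabpc1l, Pelo and Skiv2l, against 6.31% of all genes. Between the injected groups limma called 0 of 44 (5 at an unadjusted p under 0.05, where 18.4% of all genes were, and 0 in the authors' deposited table, which calls 5.22% of all genes).

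Transcripts that NMD is known to degrade in other cells were described from a list of 25 genes, of which 23 had a row and 18 were tested. These values sum over a gene's isoforms, so the isoforms that NMD degrades are not measured apart. In GTWT against GT 4 rose, 2 fell and 12 did not pass, a share of 33.3% called where 16.6% of all genes were, and the median difference was 0.03. At an unadjusted limma p under 0.05 were 8 of 18, where 30.9% of all genes were. The authors' deposited table calls 6 of 18 there, against 18.6% of all genes. They are Atf3, Uvrag, Tbl2, Srsf2, Srsf7 and Ddit3 (q = 0.0145). Cdkn1a, which limma called, has the same deposited p-values and q-values as genes listed at 0 in every library, such as Snhg1. The authors may therefore not have tested it. Atf3, a stress-induced transcription factor gene, rose by 0.78 on the log2 scale, from 18.02 ± 3.33 to 31.69 ± 5.20 FPKM (SD, n = 4, SE of the difference 0.13, limma adjusted p = 0.00160). Uvrag, a gene of autophagy and endosome traffic, rose from 42.6 ± 1.80 to 55.4 ± 2.52 (0.37, limma adjusted p = 0.00158). In both cases each GTWT library was above each GT library. In GTD272 Atf3 was at 24.20 ± 1.53, above every GT library, and Uvrag at 48.0 ± 3.44. Their differences from GT there were 0.42 and 0.17 (limma adjusted p = 0.0983 and 0.158).

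The calls of the other 2 genes that rose were lost under several settings. Cdkn1a, a cell cycle inhibitor gene, rose from 1.24 ± 0.533 to 3.24 ± 1.61 FPKM with overlapping libraries (0.88, SE 0.25, limma adjusted p = 0.0303). Leaving out GT replicate 1, 2 or 3, or GTWT replicate 1 or 4, ended this call (limma adjusted p = 0.0652 to 0.0821), as did a fit with no filter (0.0549). Tbl2 rose from 7.02 ± 0.26 to 9.24 ± 0.636 (0.35, limma adjusted p = 0.0457), with each GTWT library above each GT library and a difference of 0.31 to 0.37 whichever library was left out. Its call was lost without any GT or GTWT library or GTD272 replicate 1 (0.0569 to 0.102), with no filter (0.0702) and with the replicate block (0.0735). Without GT replicate 1, 2 or 3 or GTWT replicate 1, 2 of the list rose. In GTD272 Tbl2 was at 9.28 ± 1.55 and Cdkn1a at 1.29 ± 0.448. Their differences from GT there were 0.34 and 0.04 (limma adjusted p = 0.112 and 0.953), with overlapping libraries.

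The genes that fell, Srsf2 and Srsf7, encode splicing factors. Other splicing regulators of the list did not pass in GTWT against GT, with differences of -0.08 for Srsf3, -0.09 for Tra2b, 0.08 for Hnrnpl and 0.01 for Ptbp2. Srsf2 fell from 221.32 ± 14.98 FPKM in GT to 172.2 ± 2.42 in GTWT and 173.9 ± 7.35 in GTD272 (-0.36 and -0.35, limma adjusted p = 0.000556 and 0.00303). Srsf7 fell from 45.1 ± 3.16 to 31.3 ± 2.78 in GTWT (-0.51, limma adjusted p = 0.00190) and was at 39.9 ± 4.46 in GTD272, which did not pass. Srsf2 was the 1 gene of 18 that limma called in GTD272 against GT (5.56%, against 2.95% of all genes), and 7 were at an unadjusted p under 0.05 (19.0% of all genes). The authors' deposited table calls 5 of 18 there, Atf3, Ddit3, Tbl2, Srsf2 and Auh, against 6.31% of all genes. Atf4, the most abundant of the list at a mean FPKM of 267.0, had differences of 0.04 in GTWT (95% interval -0.06 to 0.15) and -0.06 in GTD272 (-0.17 to 0.04). Snhg1, a host of small nucleolar RNAs, was the lowest, listed at 0 in all 12 libraries. Between GTWT and GTD272 limma called 0 of 18 (7 at an unadjusted p under 0.05, where 18.4% of all genes were). The authors' deposited table calls 2 of 18 there, Atf3 and Srsf7, against 5.22% of all genes.

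**Figure D4:**
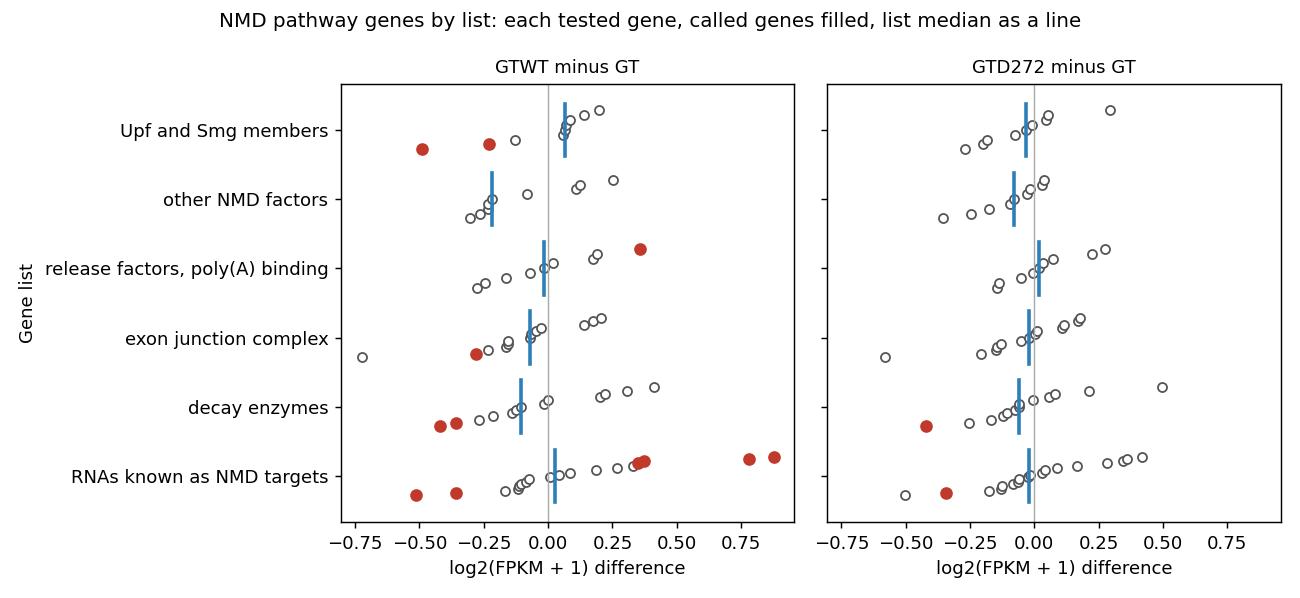
Differences on the log2(FPKM + 1) scale of each tested gene by list, in GTWT minus GT and GTD272 minus GT, with filled points for adjusted p under 0.05 and a line at each list's median. Medians lie between -0.22 and 0.06 in GTWT minus GT, where filled points occur in 5 of the 6 lists, and 2 points are filled in GTD272 minus GT.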

How the data were processed

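Per the labels, a NEBNext Ultra kit was used and reads were 150-base pairs. A protocol in the labels names Smart-seq2 amplification and lysed ovaries, while the design text names oocytes. Per the submitters' processing notes, TopHat2 2.0.13 and the mm10 build were used. The deposited FPKM values were calculated and normalized by the authors with Cufflinks 2.2.1, per the labels, and the deposited p-values and q-values come from Cuffdiff. No annotation is named in the sources used here. The table's header stands 1 column to the left of its values, and columns were realigned.

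FPKM carry no counts. Ratios of low values (of 4811 pairs, 89.8% matched a ratio of whole numbers no larger than 5, with a tolerance of 0.02 in log2) gave relative depths of 55.3% to 100.0% of the deepest library, with 55.3% to 100.0% in GT, 64.6% to 82.1% in GTD272 and 66.0% to 84.1% in GTWT. Between 11167 and 11364 genes reached an FPKM of 1, and no libraries were identical (r = 0.951 to 0.981 across genes).

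The trended limma model (version 3.58.1, R 4.3.3) was fitted to log2(FPKM + 1) of 11687 genes (FPKM 1 or more in 4 or more libraries) with all 12 libraries in 1 model (9 residual degrees of freedom). This scale understates changes of low genes. Calls used p-values adjusted over all genes by Benjamini-Hochberg, with a threshold of 0.05, and intervals are 95%. The fit was tested on simulated data. Members and gene lists were chosen with earlier results of these data known. Named genes are the 9 members, list genes called in any comparison, the highest and lowest gene of each list, and the 3 nearest profiles of each called member. Xrn1, the other splicing regulators, list genes called only in the authors' deposited table and the genes that overlap members were added after their values were seen. Coordinates and sequences are from GENCODE M21 (GRCm38, the assembly of mm10), and copies were sought with blastn 2.17.0. Alternatives were another pseudocount (0.1), no filter, quantile normalization, median-ratio rescaling, no trend, the compared groups alone, a replicate block, and each library left out.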

Additional observations from a re-analysis of the deposited data

Results flagged for a closer look

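Smg1 in GTWT replicate 3 was at 7.61 FPKM, far above the other 3 libraries of its group (5.02 to 5.25), with a gap of 0.914 of the group's whole range. It was the only flag among 27 groups of 4 values for the 9 members and the 3 of Marf1, and chance flags about 1 in 20 such groups. The same library was the highest of its group for 8 of the 9 members, and for 27.1% of all tested genes.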

How the results depend on the processing

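Of 513 recomputed differences of the 9 members, 493 kept their direction and their side of the threshold. With no filter, no trend, the compared groups alone or the replicate block, a difference of group means stays the same. The same holds with a library of the third group left out, so direction could not change in these settings. Only Upf1 and Smg8 in GTWT against GT were called in the main fit. Members called lower in GTWT against GT came to 1 after quantile normalization and without the trend, and to 1 to 2 with a library left out, since Smg8 was lost. Members called lower in GTWT against GTD272 came to 0 to 1. Differences that changed sign with a library left out, none of them called, ranged from -0.05 to 0.2 for Upf3a in GTWT minus GT, from -0.05 to 0.03 for Smg6 and -0.1 to 0.02 for Upf3b in GTD272 minus GT, and from -0.05 to 0.05 for Upf2 and -0.22 to 0.04 for Smg9 in GTWT minus GTD272.

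With a library left out, other pathway genes called ranged from 1 to 2 higher and 2 to 4 lower in GTWT against GT, 0 to 1 and 1 to 2 in GTD272 against GT, and 0 to 1 lower in GTWT against GTD272. The known NMD targets called were 2 to 4 higher in GTWT against GT, 0 to 1 higher and 1 to 2 lower in GTD272 against GT, and 0 to 1 lower in GTWT against GTD272. Other pathway genes called higher came to 2 in GTWT against GT after quantile normalization and to 1 in GTD272 against GT with the compared groups alone, and targets called higher in GTWT to 2 with no filter.

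Over all genes, 717 rose and 1223 fell in GTWT against GT (984 and 976 after quantile normalization, 817 and 1118 after median-ratio rescaling), 165 and 180 in GTD272 against GT, and 73 and 215 in GTWT against GTD272. In GTD272 against GT these came to 102 and 107 with no filter, 87 and 77 without the trend, and 60 to 168 and 50 to 207 with a library left out. In GTWT against GTD272 the higher came to 144 after quantile normalization (44.0% of calls, against 25.3%), 47 without the trend and 27 with the compared groups alone, the lower to 125 with no filter, 126 without the trend and 97 with the compared groups alone, and both to 29 to 70 and 85 to 246 with a library left out.

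The replicate numbers did not pair the libraries: deviations of same-numbered libraries correlated at -0.222 to 0.211, and 3 of 12 libraries correlated best with their own number. With the replicate block, calls came to 99 higher and 95 lower in GTD272 against GT and 38 higher in GTWT against GTD272, and no call of a member changed. The cause of these shifts was not tested. Depth is known only as a ratio between libraries, which limits what can be said of low genes such as Smg9.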
